A study of Mus musculus with 8 samples.

Results

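The transcripts described here encode the hypothalamic neuropeptides: the magnocellular hormones vasopressin (Avp) and oxytocin (Oxt), the releasing hormones Crh and Trh, the lateral hypothalamic peptides Pmch and Hcrt, and the arcuate feeding peptides Agrp, Npy, Pomc and Cartpt. Members were every probe whose platform symbol was 1 of these 10 genes. A probe was listed for 8 of the 10, 1 probe each, and all 8 were tested, among 17863 gene symbols tested in all. Pmch and Agrp had no listed probe and were not analysed here. The list was chosen by the vasopressin values themselves, which had been seen higher on the trehalose arrays than on the control arrays. Comparisons of any listed gene with control are therefore given as descriptions, without a p-value. The only comparison of groups tested is 10 days against 1 day of trehalose, which that choice did not use.

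Each array carried RNA from 1 male C57Bl/6J mouse, labelled as 9 weeks old. Control mice drank water and were sampled at day 0 (n = 2), and the other mice were given trehalose, a disaccharide of glucose, for 1 day (n = 3) or 10 days (n = 3). All were fasted for 6 hours and perfused through the heart, and they had been housed 3 to a cage, without a record of which mice shared one. The sample labels name the cerebral cortex and neocortex as the tissue, whereas the design text names the whole left hemisphere. No control was sampled at day 1 or day 10, so treatment and time of sampling cannot be told apart.

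Vasopressin and oxytocin are made mainly by large neurons of the supraoptic and paraventricular nuclei, which send their axons to the posterior pituitary. Vasopressin governs water retention by the kidney and oxytocin governs milk ejection and uterine contraction, and the genes for both sit side by side and are copied from opposite strands. CRH and TRH, made in the paraventricular nucleus among other places, drive the release of corticotropin and thyrotropin. POMC and NPY neurons of the arcuate nucleus respectively restrain and promote feeding, orexin neurons of the lateral hypothalamus (Hcrt) maintain wakefulness, and CART peptides accompany several of these systems. Npy, Crh and Cartpt are also transcribed outside the hypothalamus, Npy and Crh in cortical interneurons for example, so that their RNA in a hemisphere is not from the hypothalamus alone.

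Promoter windows are shown for the genes whose arrays differed most within a group and whose windows carried a searched motif for a known class of regulator. Sequences are the 250 bases before the start site in the RefSeq promoter table, build GRCm38.p6, read 5′ to 3′ on the strand of the gene. Of the 10 genes, 8 matched that table by symbol. In RefSeq, Oxt spans chr2:130574519-130577054 and Avp chr2:130580620-130582588, with 3565 bases between the spans. Capitals mark every match to the E-box, the nuclear receptor element, the variant TATA element and the cAMP response element whose letters are given after the sequences; a match on the other strand is printed as its reverse complement. The windows below lie at chr2:130582589-130582838, minus strand (Avp), chr2:130575919-130576168, plus strand (Oxt), and chr13:99900684-99900933, minus strand (Cartpt). The Oxt and Cartpt windows lie within the span of their genes, before a start site inside it.
Avp: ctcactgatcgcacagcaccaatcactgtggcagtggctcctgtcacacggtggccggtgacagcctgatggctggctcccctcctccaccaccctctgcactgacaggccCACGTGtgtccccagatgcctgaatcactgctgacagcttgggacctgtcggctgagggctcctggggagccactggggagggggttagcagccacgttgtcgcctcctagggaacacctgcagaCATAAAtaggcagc
Oxt: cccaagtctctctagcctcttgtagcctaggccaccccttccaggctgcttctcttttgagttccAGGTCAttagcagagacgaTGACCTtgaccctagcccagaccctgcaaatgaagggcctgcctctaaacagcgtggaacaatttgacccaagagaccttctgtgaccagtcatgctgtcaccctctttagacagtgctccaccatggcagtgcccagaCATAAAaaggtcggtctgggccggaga
Cartpt: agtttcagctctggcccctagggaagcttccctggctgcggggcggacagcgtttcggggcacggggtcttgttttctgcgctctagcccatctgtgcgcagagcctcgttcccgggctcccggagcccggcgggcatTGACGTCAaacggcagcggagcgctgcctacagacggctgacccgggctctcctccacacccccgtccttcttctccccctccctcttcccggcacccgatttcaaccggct

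Both strands were searched, and none of the motifs searched overlapped another match in these windows. The Avp window held CACGTG, an E-box of the kind bound by clock transcription factors, from base -139 to -134 counted from the start site. This motif was found in 6.02% of the 32851 windows of the table. The Oxt window held no CACGTG but held AGGTCA, an element bound by nuclear receptors, from -185 to -180, and its reverse complement from -166 to -161. AGGTCA was found in 14% of all windows. Both the Avp and the Oxt window held CATAAA close to the start site, at -14 to -9 and at -27 to -22, and 10.8% of all windows held it. The common form TATAAA, present in 12.4% of all windows, was in none of the 3 printed. Among the member windows not printed, those of Hcrt, Pmch and Pomc held it. AGGTCA was also in the windows of Trh and Pomc, and CATAAA in that of Npy. In the Cartpt window TGACGTCA, the cAMP response element, lay from -112 to -105, and 1.55% of all windows held it. The printed windows were picked partly for carrying a motif, so nothing is read from their matches beside the shares over all windows. These matches are descriptions of the letters and were not tested as binding sites.

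All 8 listed transcripts were above the blank spots (their mean plus 2 SD) on all 8 arrays. Values below are log2 intensities after background correction and quantile normalization. They compare arrays for 1 probe and not one gene with another. Per array, 86.3% to 92% of probes were above that limit, and the number of arrays limits the precision.

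Vasopressin was higher on every trehalose array than on both control arrays. The log2 intensity of Avp was 9.10 and 9.29 on the control arrays, 9.97, 10.34 and 9.49 after 1 day of trehalose, and 9.85, 9.63 and 9.49 after 10 days. The 1 day and 10 day arrays overlapped, and the lowest array of each lay at the same level, above the higher control. Spot medians before normalization ran from 530.5 on a control array to 1353.5 on replicate 2 of 1 day. The group means were 9.19 ± 0.13 (SD, n = 2), 9.94 ± 0.42 (SD, n = 3) and 9.66 ± 0.18 (SD, n = 3). Against control, Avp was 0.74 higher on the log2 scale after 1 day (SE 0.22, 1.67-fold) and 0.47 higher after 10 days (SE 0.22, 1.38-fold). Over both times it was 0.61 higher (SE 0.20, 1.52-fold). The SEs take no account of the choice of the list by these values. Of the 8 transcripts, Avp alone (1 of 8) separated all trehalose arrays upward from both controls. The background for this pattern was 2.75% of all probes, and since the list was chosen by this contrast nothing is read from the count.

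Oxytocin did not separate the groups. On the log2 scale Oxt was at 8.73 and 8.68 on the control arrays, 9.12, 9.57 and 8.54 after 1 day, and 8.56, 8.78 and 8.91 after 10 days. Replicates 1 and 2 of 1 day were the highest arrays of the series, whereas replicate 3 of 1 day was the lowest. The change over both times against control was 0.21 (SE 0.23, 95% interval -0.32 to 0.74). It was -0.14 when the local background was subtracted, and between 0.0867 and 0.343 with 1 array left out. The interval therefore spans both no change and a change of the size described for Avp.

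**Figure D1:**
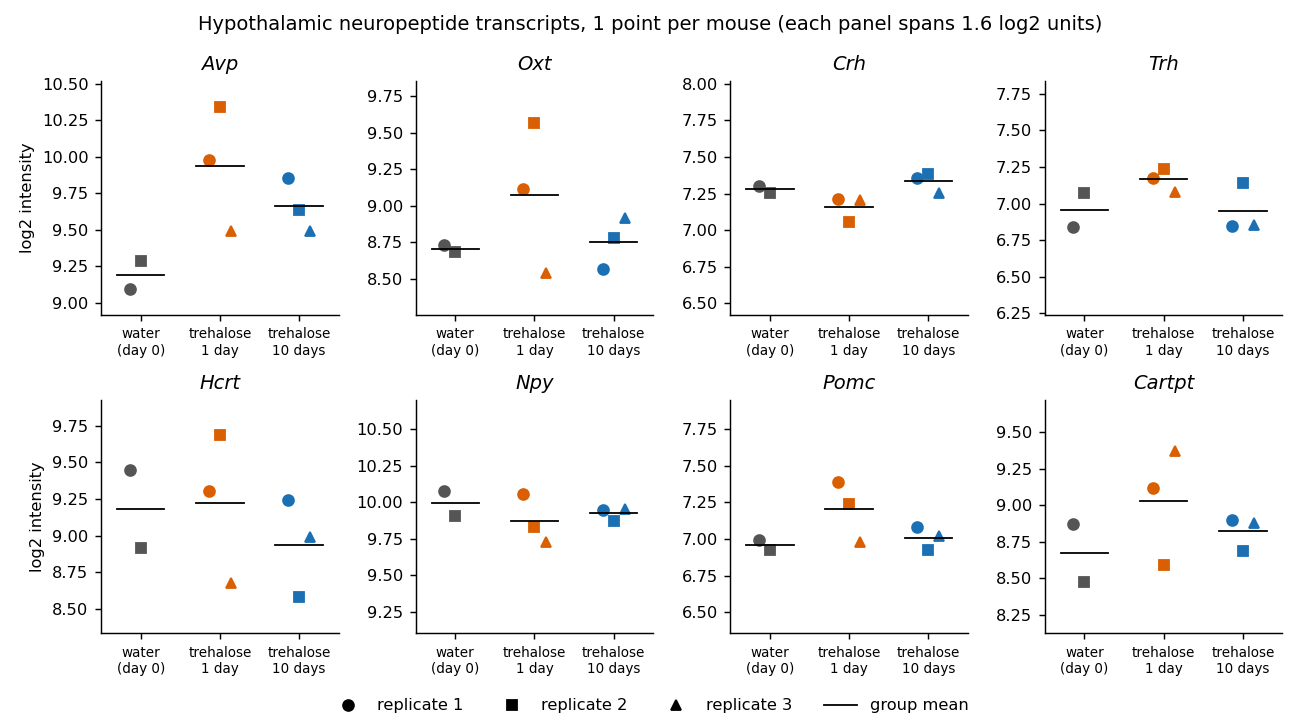
Log2 intensity of each listed neuropeptide transcript by group, 1 point per mouse, with the marker showing the replicate number and the line the group mean. Every panel spans the same number of log2 units, but the probes differ in brightness, so distances compare arrays within a panel and not genes. Avp is the panel in which all trehalose points lie above both control points, from 9.49 to 10.34 against 9.10 and 9.29.

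The releasing hormones moved little. Crh measured 7.31 and 7.25 on control arrays, 7.22, 7.05 and 7.20 after 1 day, and 7.36, 7.39 and 7.26 after 10 days. All arrays of 1 day lay below all others. Trh read 6.84 and 7.07 on control arrays, 7.18, 7.24 and 7.08 after 1 day, and 6.85, 7.14 and 6.86 after 10 days. The 1 day arrays were above both controls but overlapped the 10 day arrays. At 1 day, 2 of the 8 transcripts (Avp and Trh) lay wholly above both controls and 1 (Crh) wholly below. The share of all probes with such separations of 1 day from control was not computed, so nothing is read from them. Relative to control at 1 day, Crh was lower by a log2 difference of -0.12 and Trh higher by 0.21, with ranges of -0.149 to -0.0687 and 0.091 to 0.326 when single arrays were left out.

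Orexin varied more within groups than between them. The log2 intensity of Hcrt was 9.45 and 8.91 on control arrays, 9.30, 9.69 and 8.67 after 1 day, and 9.25, 8.58 and 8.99 after 10 days. Its lowest and highest arrays were both from trehalose-treated mice, and the groups overlapped throughout. The log2 change over both times was -0.10 (SE 0.28), and its sign turned with single arrays, to 0.165 without replicate 1 of control and -0.37 without replicate 2 of control. It was -0.89 with the local background subtracted and 0.0212 under the replicate block.

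Among the arcuate peptides, Npy was the steadiest. The log2 intensity of Npy was 10.08 and 9.91 on control arrays, 10.06, 9.84 and 9.73 after 1 day, and 9.95, 9.88 and 9.96 after 10 days. Pomc, the precursor of melanocortins and of corticotropin, was at 6.99 and 6.92 on control arrays, 7.39, 7.24 and 6.98 after 1 day, and 7.08, 6.93 and 7.02 after 10 days. Replicates 1 and 2 of 1 day stood above all other arrays for Pomc, as they did for Avp and Oxt. For Cartpt the log2 intensity was 8.87 and 8.48 on control arrays, 9.12, 8.59 and 9.37 after 1 day, and 8.90, 8.69 and 8.88 after 10 days. Here replicate 3 of 1 day, which was lowest for Oxt, was the highest array, and all 3 groups overlapped. Over both times the log2 change was -0.09 for Npy (SE 0.08), 0.15 for Pomc (SE 0.10) and 0.25 for Cartpt (SE 0.19). With single arrays left out, it ran from -0.178 to -0.00957 for Npy, 0.101 to 0.203 for Pomc and 0.0559 to 0.448 for Cartpt, the ends of the Npy and Cartpt ranges coming from leaving out either control mouse.

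Over both times against control, 5 of the 8 transcripts were higher and 3 lower, with a median log2 change of 0.12, beside -0.0017 over all tested probes. At 1 day 6 were higher and 2 lower (median 0.23), and at 10 days 5 were higher and 3 lower (median 0.05). These counts share the same 2 control arrays.

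Several of these transcripts spread far more between mice of 1 group than most probes did. The pooled within-group SD was 0.42 for Hcrt, 0.34 for Oxt, 0.30 for Avp and 0.29 for Cartpt, against a median of 0.064 over all tested probes. Those SDs were at or above the 99.3 percentile of all tested probes. Pomc (0.14) and Trh (0.14) were near the 90th, Npy (0.12) at the 85.5 and Crh (0.073) at the 58.2 percentile. By this ranking only Crh was near a typical probe, but the ranking was over probes of any brightness. By mean log2 level, Npy was at the 93.6, Avp at the 92.2, Hcrt at the 88, and Oxt and Cartpt at the 85.7 percentile. Crh was at the 60.2, Pomc at the 56 and Trh at the 55 percentile of mean level. Spread was not compared with that of probes of like brightness. Whether any listed transcript varied unusually for its brightness was therefore not tested. In bulk samples such as these, fewer cells of a type and less RNA per cell cannot be told apart.

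From 1 day to 10 days of trehalose, no listed transcript changed past the threshold. In limma with Benjamini-Hochberg adjustment over 21583 probes, 0 of the 8 passed an adjusted p of 0.05, and the background was 0% of all probes. At an unadjusted p under 0.05, 1 of the 8 passed in limma, beside a background of 3.5% of all probes (756 probes). That transcript was Crh, 0.18 higher on the log2 scale at 10 days (SE 0.06, 95% interval 0.05 to 0.31, 1.13-fold; limma adjusted p = 1). All 10 day arrays of Crh lay above all 1 day arrays. It was the only 1 of 8 whose 2 trehalose groups did not overlap, and the background for non-overlap in either direction was 8.39%.

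The other differences between the trehalose times were within their intervals. Avp was lower at 10 days by a log2 difference of -0.28 (SE 0.20, limma adjusted p = 1) and Oxt by -0.32 (SE 0.23, limma adjusted p = 1). Trh was lower by -0.22 (SE 0.10) and Pomc by -0.19 (SE 0.10), again with an adjusted p of 1 in limma. For Hcrt the difference was -0.28 (SE 0.28), for Cartpt -0.20 (SE 0.19) and for Npy 0.05 (SE 0.08). In all, 2 transcripts were higher and 6 lower at 10 days, with a median log2 change of -0.21, against -0.0015 over all tested probes, of which 48.6% were higher. Replicate 3 of 1 day bore on these values. Without it, 5 of the 8 (Avp, Oxt, Crh, Trh and Pomc) were at an unadjusted limma p under 0.05, beside 2.97% of all probes in that fit, and Avp was lower by -0.50 (SE 0.14), while the adjusted p of all 8 stayed at 1. Without replicate 2 of 1 day the Avp difference was -0.07 (SE 0.16).

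**Figure D2:**
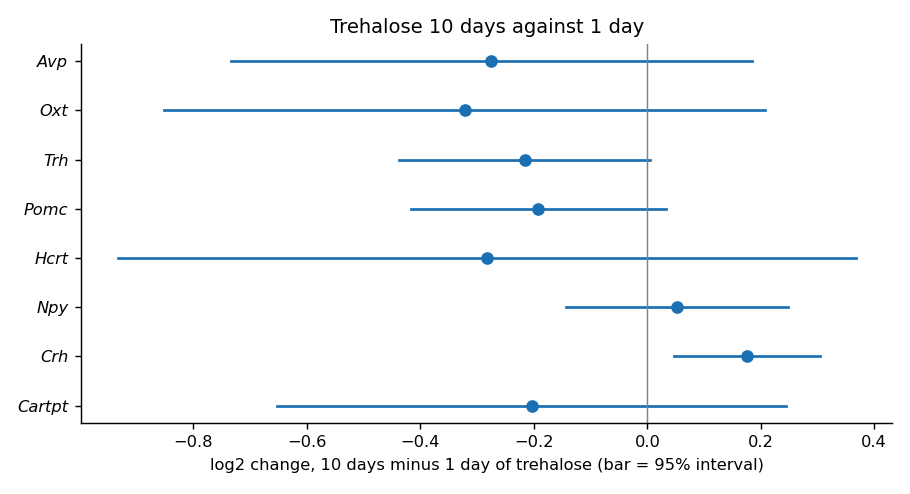
Log2 change of each transcript from 1 day to 10 days of trehalose, with its 95% interval from the limma fit; negative values are lower at 10 days. The Crh interval, 0.05 to 0.31, lies above 0, and the others include 0.

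Covariation over the 8 arrays was examined as a possible sign of how much hypothalamic tissue each sample held, which was not itself measured. The listed transcripts did not move as 1 block. Of the 28 pairs, 15 had a Pearson r above 0 and 13 below. The 7 pairs with Avp include the values that chose the list and are described without a p-value. The 21 other pairs were tested by exact permutation over all orders of the arrays (two-sided). For r, 1 pair had a p under 0.05, Oxt and Crh. For Spearman's rho, 1 pair did, Hcrt and Pomc (rho = 0.738, exact permutation p = 0.0458), with r = 0.647 (exact permutation p = 0.0821). None passed after Benjamini-Hochberg adjustment over the 21 (smallest adjusted p = 0.444 for r and 0.688 for rho, exact permutation).

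Avp and Oxt had r = 0.729 and rho = 0.595. Without the 2 arrays farthest from the Avp median, replicate 2 of 1 day and replicate 1 of control, r was 0.416, and without the 2 farthest from the Oxt median, replicates 1 and 2 of 1 day, it turned to -0.24. The r of deviations from the group means was 0.719. Leaving out replicate 2 of 1 day alone gave 0.361, and that mouse had the highest values of both hormones. The relation therefore rests on the 1 day arrays. Subtracting the local background left r = 0.0665.

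Avp and Pomc had r = 0.749 and rho = 0.738. Without the 2 arrays farthest from the Avp median r was 0.816, but it was 0.463 without the 2 farthest from the Pomc median and 0.407 with the local background subtracted. Leaving out single arrays gave r between 0.705 and 0.834. The pair with the lowest p, Oxt and Crh, correlated at r = -0.739 (exact permutation p = 0.0439, adjusted p = 0.444), but rho was -0.262 (exact permutation p = 0.536, adjusted p = 0.751). Without replicates 1 and 2 of 1 day, r for that pair was 0.132, so that relation rested on those arrays. With the remaining transcripts Avp had r = 0.585 (Trh), 0.436 (Hcrt), -0.047 (Cartpt), -0.213 (Npy) and -0.525 (Crh). After group means were removed, Avp ran with Hcrt at 0.702 and against Cartpt at -0.815.

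**Figure D3:**
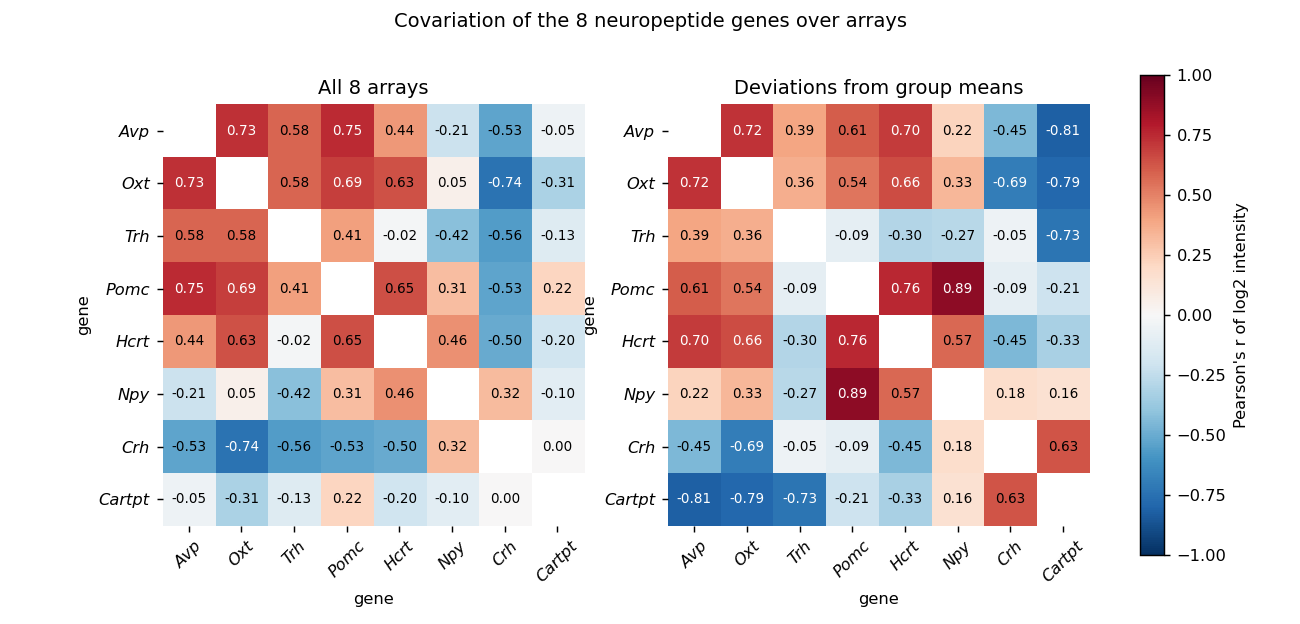
Pearson's r between the log2 intensities of each pair of transcripts over 8 arrays (left) and over deviations from the group means (right). Avp, Oxt, Trh, Pomc and Hcrt form mostly positive pairs, Crh runs against all 5 of them, and none of the 21 pairs without Avp passed adjustment.

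The mouse that set much of this pattern was replicate 2 of 1 day. Its array was the highest of the 8 for Avp, Oxt, Trh and Hcrt, second highest for Pomc, lowest for Crh and next to lowest for Npy and Cartpt. The same array had the highest mean level of thalamus markers, 7.93, against 7.47 to 7.73 on the other arrays. It had the lowest mean level of striatum markers, 7.68, against 8.28 to 8.64 on the others. Choroid plexus and ependyma markers were highest there too (8.16, against 7.73 to 7.98). Markers of the hypothalamus other than the listed genes averaged 6.71 on this array and on replicate 1 of 1 day, against 6.63 to 6.65 on the other 6 arrays. These 2 arrays also held the 2 highest values of Avp, Oxt, Trh and Pomc.

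**Figure D4:**
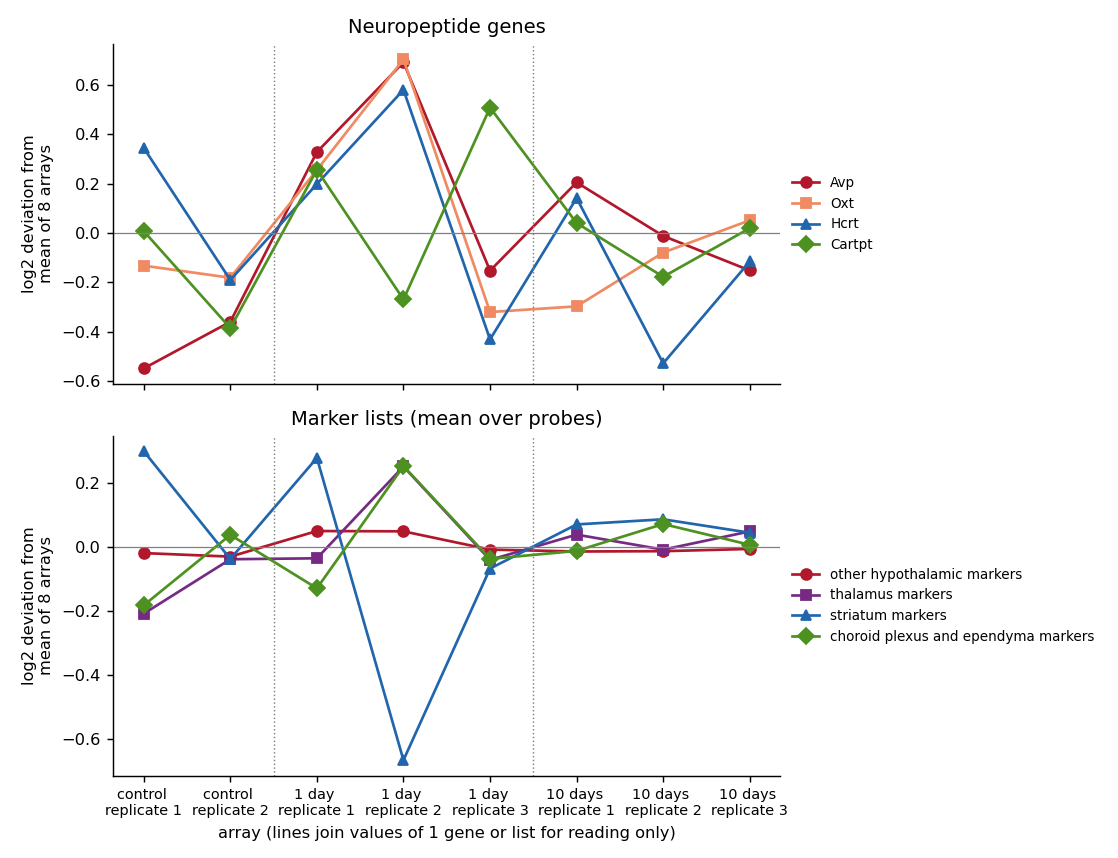
Deviation of each array from the mean of 8 arrays in log2 units, for 4 neuropeptide transcripts (top) and for the mean of 4 marker lists (bottom), with lines joining arrays only for reading. Replicate 2 of 1 day is the array with the highest Avp, Oxt and Hcrt, the highest thalamus and choroid plexus lists and the lowest striatum list.

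The r of each marker probe with Avp is a description with no test, since all points share the same 8 arrays. Of 37 probes for other hypothalamic markers, 29 correlated positively with Avp (median r = 0.365) and 30 with Oxt (median r = 0.366). Over all tested probes 50.3% correlated positively with Avp, with a median r of 0.003. All 19 thalamus probes correlated positively with Avp (median r = 0.589) and all 16 striatum probes negatively (median r = -0.565). All 10 choroid plexus and ependyma probes were positive (median r = 0.508), and 5 of 14 cortex probes were (median r = -0.137). The medians of the thalamus and hypothalamic lists were not tested against each other, and without replicate 1 of control they were 0.381 and 0.388.

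Oxt and Trh had the same signs as Avp, with median r of 0.508 and 0.340 for thalamus probes and -0.594 and -0.480 for striatum probes. Crh and Npy had the opposite signs. All 16 striatum probes correlated positively with Crh (median r = 0.702) and with Npy (median r = 0.591), and the thalamus medians were -0.545 and -0.498. Cartpt leaned the same way as Crh, with 14 of 16 striatum probes positive (median r = 0.319). Hcrt and Pomc lay between, with striatum medians of -0.282 and -0.146.

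Much of this depended on replicate 2 of 1 day. Without it, the striatum median was 0.044 with Avp (9 of 16 positive), 0.440 with Oxt, 0.158 with Crh and 0.753 with Npy. The thalamus median was then 0.406 with Avp (18 of 19 positive) but 0.011 with Oxt and -0.112 with Crh. For Trh the medians were then -0.047 (striatum, 6 of 16 positive) and 0.165 (thalamus, 11 of 19 positive). The choroid plexus and ependyma median with Avp was 0.106 (8 of 10 positive), while the hypothalamic median was 0.344 (27 of 37 positive). With the local background subtracted the hypothalamic median with Avp was -0.022 (18 of 37 positive) and the thalamus median 0.406. Within groups, as deviations from the group means, the medians with Avp were 0.182 for the hypothalamic, 0.429 for the thalamus and -0.491 for the striatum list. The part of tissue share in the Avp difference was not tested.

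**Figure D5:**
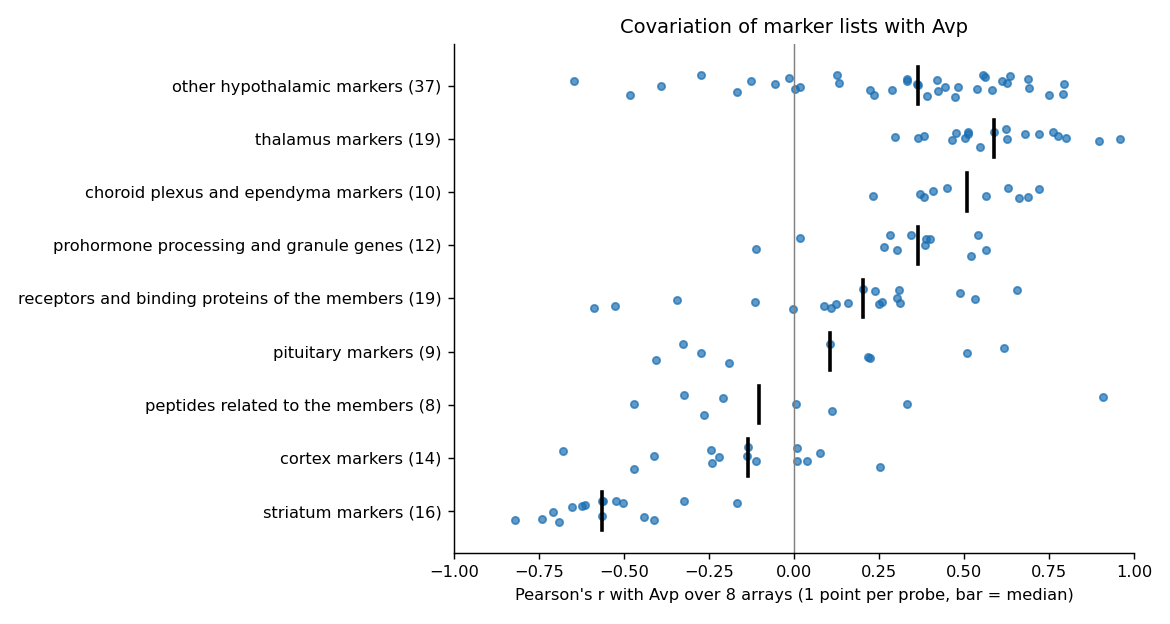
Pearson's r with Avp over 8 arrays for each probe of each marker list (number of probes in brackets), with the bar at the median; points are spread vertically only to be seen. Thalamus and choroid plexus probes all lie above 0, striatum probes all lie below 0, and hypothalamic probes spread from -0.65 to 0.79.

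The hypothalamic list itself was modestly filled. Of its 39 probes, 31 were above the blank limit on all arrays, 2 (Gabre and Lmx1a) on none, and Nkx2-1 and Rax, transcription factors of hypothalamic development, on 2 of 8. The list's summed level ranged from 4311 to 4349 on control arrays, 4427 to 4679 at 1 day and 4352 to 4426 at 10 days. Against control, 30 of 37 probes were higher at 1 day (median log2 change 0.039), beside 49.7% of all tested probes. At 10 days 22 of 37 were higher (median 0.017), beside 48.6%. Nkx2-1 and Rax, for example, were at 1.08 times the blank mean, and Avp at 19.12 to 44.68 times. The sizes of these changes are therefore not compared with that of Avp. From 1 to 10 days, 28 of 37 were lower (median -0.042), and 0 passed an unadjusted or adjusted p of 0.05 in limma. Other lists shifted against control as well. At 1 day, 17 of 19 thalamus probes (median 0.167), 9 of 10 choroid plexus and ependyma probes (0.116), 0 of 16 striatum probes (-0.313) and 2 of 14 cortex probes (-0.108) were higher. At 10 days the counts were 17 of 19 (0.158), 10 of 10 (0.114), 5 of 16 (-0.087) and 4 of 14 (-0.047).

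The thalamus list summed to 4472 and 5144 on control arrays, 5148 to 6772 at 1 day and 5348 to 5740 at 10 days, so every trehalose array exceeded both controls, though by mean log2 level replicate 3 of 1 day (7.639) lay just below the higher control (7.641). For the striatum list the sums were 9777 and 13740, 5335 to 13480, and 10220 to 11040. The choroid plexus sums were 26320 and 30830, 25260 to 34160, and 30780 to 30860, and pituitary markers summed to 782.4 and 819.3, 789.4 to 845.6, and 802.2 to 826.3. Of 20 thalamus probes 19 were above the blank limit on all arrays. The probe for Tcf7l2 was above it on none and is left out of the correlations. Of 11 pituitary probes 5 were above the limit on all arrays, and Prl (prolactin) was on none. Pituitary probes leaned little with Avp (5 of 9 positive, median r = 0.105).

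The hypothalamic markers that followed Avp most closely were Hdc, Nnat and Sncg. Those with the lowest r were Gnrh1 (-0.647), Barhl1 (-0.482) and Esr1 (-0.392), and 29 of the 37 probes had r above 0. Hdc, the enzyme that makes histamine in the tuberomammillary nucleus, had r = 0.793 with Avp, and its log2 intensity was 7.08 and 7.11 on control arrays, 7.27, 7.43 and 7.05 at 1 day, and 7.21, 7.24 and 6.91 at 10 days. Nnat (neuronatin) had r = 0.790 and 0.636 for its 2 probes, and Sncg (gamma-synuclein) r = 0.748. Among thalamus markers, Slc17a6, the vesicular glutamate transporter of thalamic and hypothalamic neurons, had r = 0.897. Its log2 intensity was 8.91 and 9.02 on control arrays, 9.33, 9.74 and 9.38 at 1 day, and 9.37, 9.23 and 9.34 at 10 days. All trehalose arrays lay above both controls for this transporter, a pattern of 2.75% of all probes. It was named for following Avp, so nothing is read from this. Amotl1 had r = 0.957 for 1 probe and 0.510 for the other, and Shox2 r = 0.799. In the pituitary list the highest r belonged to Gh (0.618), Tshb (0.509) and Cga (0.224), and in the striatum list to Isl1 (-0.167), Pdyn (-0.324) and Tac1 (-0.412 and -0.503).

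Searched over all named probes, the transcript most like Avp was Etnppl, an astrocytic enzyme that breaks down phosphoethanolamine, with r = 0.988 and rho = 1 over 8 arrays. Its log2 intensity was 8.52 and 8.61 on control arrays, 8.91, 8.99 and 8.72 at 1 day, and 8.85, 8.75 and 8.73 at 10 days, so that the 8 arrays had the same order as for Avp. Next came Ostm1 (0.958), Amotl1 (0.957), Cd36 (0.954), Mir205hg (0.941) and Paxx (0.935). The 6 probes most like Oxt were Fam187b (0.958), Armc4 (0.956), Rprd2 (0.951), Syt11, Wbscr25 (both 0.929) and Iqca (0.926), all dim, with log2 levels between 5.93 and 6.42 and an SD over arrays of at most 0.048. These are the highest of 17870 correlations for each hormone and carry no test.

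No receptor of these peptides differed between the trehalose times past the adjusted threshold. Between 1 and 10 days of trehalose, 5 of 19 receptor and binding protein probes were higher and 14 lower (median log2 change -0.028), and 0 passed the adjusted limma threshold. At an unadjusted limma p under 0.05, 3 were lower and 0 higher, beside 3.5% of all probes in either direction. All 3 were dim, at 1.69 to 2.08 times the blank mean. These were Trhr, the TRH receptor (-0.16, SE 0.04), Mc3r, a melanocortin receptor (-0.14), and Npy6r (-0.07), each with an adjusted p of 1 in limma. Of 12 probes for prohormone processing and granule genes, such as Pcsk1, Cpe and Chga, which cut and pack these peptides, 5 were higher and 7 lower at 10 days (median -0.031), and 0 reached an unadjusted p under 0.05 in limma. With Avp, 11 of the 12 correlated positively (median r = 0.364), though 3 of 12 did with the local background subtracted, and without replicate 2 of 1 day 9 of 12 did (median r = 0.124). Of 8 probes for related peptides, such as Ucn, Nts and Npvf, 5 were higher and 3 lower at 10 days, none at an unadjusted limma p under 0.05.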

How the data were processed

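RNA of 8 mouse brains was measured on 1-colour arrays. Per the file headers, each deposited scanner value is an intensity, the median of a spot's pixels, read at 3 gains and joined by least-squares lines. Per the labels' protocols, total RNA was amplified with amino allyl labelling and coupled to Cy5. Slide, scan date and software are not given in the sources used here.

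From the deposited intensities, log2 values were computed with limma 3.58.1 in R 4.3.3: normexp background correction (offset 50), failed flags set to missing (10 spots), quantile normalization, and averaging of spots of a probe. A probe was kept where 2 or more arrays exceeded the blank limit, set 2 SD over the mean of 2736 blank spots (21583 of 23473 probes). Local background was left in, since it rose and fell with the spots (r of logs 0.943 to 0.985 per array). The platform table named 1 gene for 20690 probes and none for the others, and 20556 were updated by gene identifier. 1 fit held 3 groups, with Benjamini-Hochberg adjustment at 0.05. It was tested on simulated data with independent noise and changes of 1 log2 unit. These changes were larger than the differences of the members between the trehalose times in this fit. The simulation held no likeness between arrays of the same replicate number.

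Exact permutation tests of correlation covered the 21 pairs without Avp, a choice made after seeing the data. The members, gene lists and tests were chosen with earlier results of these data known. Named genes were every listed member and the 6 probes most like Avp and Oxt (clone names and numbered gene models left out). Also named were the 3 markers of the hypothalamus, thalamus, pituitary and striatum lists with the highest r with Avp, and the receptor with the lowest p. Mc3r, Npy6r, Gnrh1, Barhl1, Esr1 and the undetected markers were named after their values were seen. Labels say that replicates are separate samples, so p-values measure the spread between those samples. Alternatives covered background, normalization, filter, variances, weights, a replicate block, the number that opens each description, and single arrays left out.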

Additional observations from a re-analysis of the deposited data

How the results depend on the processing

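Over both trehalose times, Avp was 0.505 to 0.717 above control with 1 array left out. Under other settings it was 0.504 to 0.758 above, except 1.13 with the local background subtracted. As every trehalose array lay above both controls, leaving out 1 array could not turn the sign. From 1 to 10 days, 1 probe was called in limma with the blank mean subtracted (Igkv4-55) and 1 with trended, robust variances (Il1rl2), and 0 in the other fits. Listed transcripts at an unadjusted p under 0.05 numbered 2 with no background correction, offset 16, median scaling, trended variances or array weights, and between 1 and 5 with 1 array left out; Crh was not among them only with the local background. Under the replicate block they numbered 3 (Crh, Trh and Pomc), and 1138 probes were under 0.05, against 756, with 0 called. Arrays of the same replicate number mostly correlated positively across groups. Of 7 same-numbered pairs, 6 had a correlation of deviations above 0.1 (range -0.025 to 0.263). Of the 8 arrays, 7 were closest to an array of the same number outside their group. With 2 control arrays, their deviations from the control mean are exact mirror images, so a value with 1 control fixes that with the other. Both counts are therefore partly set by the arithmetic, and no share expected by chance was computed. The main fit did not use this number, and whether it marks a batch or a pairing was not tested. The number that opens each description correlated with no member past adjustment (smallest adjusted exact permutation p = 0.357).

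With the local background, the 10 day against 1 day difference was 1.01 for Hcrt and 0.495 for Cartpt, and r of Avp with Hcrt was -0.557; Npy ran from -0.0199 (without replicate 3 of 1 day) to 0.143 with 1 array left out. The r of Avp with Npy was 0.0752 and with Cartpt 0.00348 under median scaling, and 0.219 with Npy after removing group means. With 1 array left out, r with Avp ran from -0.444 to 0.136 (Npy), -0.313 to 0.333 (Cartpt) and -0.684 to 0.0545 (Crh). List medians (alternatives chosen after seeing the data) with Avp turned to -0.0215 (hypothalamic), -0.114 (granule) and 0.00872 (related peptides) with the local background, and for the pituitary list to -0.0418 with the blank mean subtracted, -0.0701 under median scaling and -0.136 in the authors' table. With the local background, thalamus and striatum medians turned to -0.289 and 0.419 (Hcrt), 0.0549 and -0.0352 (Npy), 0.0167 and -0.0794 (Cartpt), and the striatum median to 0.0215 (Pomc). With 1 array left out, Avp medians ran from -0.143 to 0.155 (pituitary), -0.223 to 0.209 (related peptides) and -0.816 to 0.0441 (striatum). Striatum medians ran from -0.812 to 0.44 (Oxt), -0.48 to 0.65 (Hcrt), -0.728 to 0.435 (Pomc) and -0.00331 to 0.554 (Cartpt), and thalamus medians from -0.314 to 0.49 (Hcrt), -0.0559 to 0.539 (Pomc) and -0.344 to 0.0914 (Cartpt). The causes were not tested. With 2 control arrays and 3 per trehalose time, the 95% interval of a log2 change reached, in the median over all probes, 0.13 to each side against control and 0.117 between times.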
